A study of Homo sapiens with 15 samples.

Results

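The miRNAs numbered from miR-4417 to miR-4540 form a run of late entries in the human miRNA catalogue. All rows of both count files with a number in that range were taken, with any letter or arm, except miR-4454. The rule used names alone and no measured value. It found 137 members among the 2424 miRNAs of the series. The knockdown counts list all 137 members among 2418 miRNAs, and the precipitation counts list 128 of them among 2189. The 9 others, miR-4433-3p, miR-4447, miR-4455, miR-4477a, miR-4477b, miR-4481, miR-4498, miR-4506 and miR-4536-3p, have knockdown values only. Of the 123 numbers in the range, 122 have a row, and only miR-4500 has none.

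Small RNA was sequenced from FTO1C1, FTO2D4 and FTO3C3, 3 clones of Flp-In 293 T-Rex cells, a derivative of the human embryonic kidney line HEK293. For the knockdown, each clone was transfected for 48 h with 10 nM of scrambled siRNA or of a mix of FTO siRNAs, which gave 3 libraries in each group. For the precipitation, RNA of untreated cells of the same 3 clones was sequenced as input, after precipitation with an antibody against N6-methyladenosine (m6A), and after precipitation with unspecific IgG, which gave 3 libraries in each group. The methods call the cells of the knockdown uninduced and say nothing of induction for the precipitation. Each clone and condition gave 1 library, so that a group samples 3 clones of 1 cell line and no separate cultures of a clone. The knockdown itself cannot be checked in these files, since FTO mRNA is not among the miRNAs counted.

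A miRNA is a short RNA that is cut from a hairpin precursor, first by Drosha and DGCR8 in the nucleus and then by Dicer in the cytoplasm. It guides Argonaute proteins to messenger RNAs, mainly by pairing of its seed, bases 2 to 8 from the 5′ end, and miRNAs with the same seed share many targets. Many entries of this number range came into the catalogue from deep sequencing of human B cells, and many are rare reads of short, G-rich RNAs whose processing by Drosha and Dicer is less well established than for older miRNAs. m6A is a methyl mark on adenosine, set in mRNA mainly within the consensus RRACH by the METTL3 complex and taken off by FTO and ALKBH5.

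A mature sequence was found in RefSeq (GRCh38.p14) for 119 of the 137 members. Of these, 80 had a seed that no other human miRNA in the table had and 39 shared their seed. The sequences of the members on which the results turn are given in lower case from 5′ to 3′, with the seed in capitals. Members abundant before precipitation, or higher after FTO siRNA, are shown first.
miR-4443: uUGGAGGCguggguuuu
miR-4502: gCUGAUGAugauggugcugaag
miR-4483: gGGGUGGUcuguuguug
miR-4517: aAAUAUGAugaaacucacagcugag
miR-4535: gUGGACCUggcugggac
miR-4492: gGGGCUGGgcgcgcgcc
miR-4475: cAAGGGACcaagcauucauuau

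The next set was much higher with the m6A antibody than with IgG.
miR-4527: uGGUCUGCaaagagaugacugu
miR-4524a-3p: uGAGACAGgcuuaugcugcuau
miR-4434: aGGAGAAGuaaaguagaa
miR-4530: cCCAGCAGgacgggagcg
miR-4484: aAAAGGCGggagaagcccca

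Another set was higher with both antibodies than in the input, and is rich in G.
miR-4442: gCCGGACAagagggagg
miR-4466: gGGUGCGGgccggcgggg
miR-4463: gAGACUGGgguggggcc

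The last set shares its seed with a well-known family.
miR-4458: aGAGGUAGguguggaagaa
miR-4465: cUCAAGUAgucugaccagggga
miR-4429: aAAAGCUGggcugagaggcg

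miR-4458 has the seed of the let-7 family, miR-4465 that of miR-26a-5p and miR-26b-5p, and miR-4429 that of miR-320b, miR-320c and miR-320d. miR-4492 has the seed of miR-4498, miR-762 and miR-5001-5p. miR-4434 has that of miR-4516 and miR-5703, and miR-4483 that of miR-1293. No other miRNA of the table had the seed of miR-4443, miR-4502, miR-4517, miR-4535, miR-4530 or miR-4484.

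The 119 members lie at 126 places on 21 chromosomes. For 57 of them (47.9%), the annotation has a longer gene on the same strand, against 65.0% of the 2127 listed miRNAs with a sequence. Introns and exons were not told apart. miR-4443 (chr3:48196572-48196588, plus strand), miR-4502 (chr13:114273885-114273906, plus strand) and miR-4492 (chr11:118910765-118910781, plus strand) lie in no annotated gene of their own strand. miR-4517 (chr16:28958587-28958611) lies in NFATC2IP, and miR-4442 (chr3:25664875-25664891) in TOP2B, which codes for a DNA topoisomerase. miR-4524a-3p and miR-4524b-3p come from the opposite strands of 1 place on chromosome 17. The first (chr17:69099570-69099591, minus strand) lies in the lipid transporter gene ABCA6 and the second (chr17:69099607-69099626, plus strand) opposite to it.

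Members were richer in G than the average miRNA. The median share of G was 35.3% of the bases of a member and 27.3% over all listed miRNAs, whereas the median shares of A (22.7% in both) and of G plus C (52.9% and 52.2%) were close. The length ranged from 17 to 26 bases, with a median of 21 against 22 for all. A run of GGGG occurred in 18 members (15.1%) and in 12.2% of all, GAC or AAC in 53 (44.5%) and in 37.4%, and the wider RRACH consensus in 32 (26.9%) and in 21.6%. These letters were read on the mature strand, and RRACH matches are a subset of the others.

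In the counting, a read could go to a miRNA when exact matches of at least 7 bases covered at least 17 bases of it. By this criterion, 19 members have a relative whose sequence could have been counted on them. For 11 of these, among them miR-4492 and miR-4535, the only relative is miR-3620-5p, a sequence of repeated units, so that reads could have been exchanged with it. The other 8 have another relative. They include miR-4429 (miR-320b, miR-320c and miR-320d) and both arms of miR-4524a and miR-4524b. Reads of miR-320b, miR-320c and miR-320d could match miR-4429, and reads of the same arm of miR-4524a and miR-4524b could match each other. Only miRNAs with a sequence in RefSeq were searched, which 2127 of the 2424 listed had. Relatives without one would be missed, for seeds as well, and miR-320a was not among those found.

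The libraries held between 186446 and 4973238 reads on miRNAs. IgG of FTO3C3 was the smallest and m6A of FTO3C3 the largest. A single miRNA, miR-6080, took 2.05 to 4.18% of the reads in the knockdown libraries, 15.5 to 28.4% in the inputs, 41.3 to 47.8% in the m6A libraries and 58.0 to 71.6% in the IgG libraries. Its count is the same, 563404 reads, in the IgG and the m6A library of FTO2D4, and counts and medians of the precipitation are therefore given with and without it in the totals. Libraries of 1 group differed by more than sampling noise (6.11 to 145 for chi-square over its degrees of freedom), and each was counted once. Of the 13 miRNAs fixed as markers of blood, liver or muscle, 11 were listed in the knockdown counts and 9 in the precipitation counts. The 7 blood markers summed to 101 to 172 RPM in the knockdown libraries, 490 to 919 RPM in the inputs, 117 to 150 RPM with IgG and 922 to 2107 RPM with the m6A antibody, where miR-223-3p, a miRNA of myeloid cells, led them at 1125 RPM. Their part in the results was not tested.

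In cells with scrambled siRNA, members took 1.66% ± 0.035 (SD, n = 3) of all miRNA reads. Values are given as RPM, reads per 1000000 miRNA reads of the library. Of the 137 members, 60 reached the expression threshold of the methods, 15 RPM in all 3 libraries (43.8%, against 42.7% of all miRNAs). A level of 100 RPM in all 3 libraries was reached by 12 members (8.76%, against 12.1% of all miRNAs). The median member had 15.5 RPM and the median miRNA 15.1 RPM. No member was at 0 reads in any knockdown library, where at most 1 of all 2418 miRNAs was at 0. The rarest member on average was miR-4446-5p at 2.27 RPM. A few members carried the reads, since the top 3 of each library held 43.5 to 54.7% of them.

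miR-4443 was the most abundant member, with 5056, 4221 and 3334 RPM in FTO1C1, FTO2D4 and FTO3C3. miR-4502 followed with 3057, 2468 and 2410.5 RPM. Their means were 4204 ± 861 and 2645 ± 358 RPM, and their ranges did not overlap. miR-4460 (1232 ± 145 RPM), miR-4448 (1125 ± 134 RPM) and miR-4483 (988 ± 278 RPM) came next and overlapped each other. miR-4431 (741 ± 9.83 RPM), miR-4468 (712 ± 61.7 RPM), miR-4535 (703 ± 126 RPM) and miR-4517 (611 ± 91.1 RPM) formed a chain in which neighbours overlapped, and miR-4429 lay below them at 410.4 ± 53.1 RPM.

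The order was partly different in the inputs, which come from untreated cells and were prepared and counted apart, so that levels are only set side by side. miR-4443 (4849 ± 1075 RPM) and miR-4502 (1686 ± 486 RPM) led there too, and miR-4448 (1187 ± 189.8 RPM), miR-4431 (671 ± 154 RPM) and miR-4517 (503 ± 137 RPM) followed. miR-4483 had 82.4 ± 19.5 RPM in the inputs, miR-4535 had 142 ± 25.5 RPM and miR-4468 had 201 ± 47.5 RPM. Conversely, miR-4524b-3p had 11.9 ± 3.97 RPM with scrambled siRNA and 134 ± 26.6 RPM in the inputs. miR-4451 (258 ± 63.6 RPM) and miR-4457 (162 ± 26.9 RPM) were among the 10 highest in the inputs, with 189.8 ± 57.0 and 192 ± 57.8 RPM with scrambled siRNA. In the inputs, members took 1.28% ± 0.25 of the reads.

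Members from both arms of a hairpin differed in which arm was sequenced more. Over the scrambled siRNA libraries, the 5p arm held 88.7% ± 3.15 of the reads of miR-4482, 98.0% ± 1.45 of miR-4433 and 22.8% ± 4.21 of miR-4529. For miR-4524b the 5p arm held 37.4% ± 13.1 with scrambled siRNA and 6.83% ± 2.66 in the inputs. For miR-4529 it held 81.5% ± 8.96 in the inputs, so that its minor arm in one experiment was the major arm in the other, and this was not tested.

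The first comparison asks which members change when FTO, an m6A demethylase, is reduced. Reads on members were 2.61%, 2.67% and 2.27% of all miRNA reads after FTO siRNA (clones FTO1C1, FTO2D4 and FTO3C3), against 1.70%, 1.65% and 1.64% with scrambled siRNA. All 3 clones were thus higher and the groups did not overlap. A few members weighed most in these shares, since the top 3 of each FTO siRNA library held 49.6 to 56.4% of its member reads. Mean levels rose from 4204 to 6178 RPM for miR-4443, from 2645 to 5191 RPM for miR-4502 and from 988 to 1816 RPM for miR-4483. The miR-4632 to miR-4804 series took 1.62%, 2.13% and 1.63% after FTO siRNA, against 1.20%, 1.54% and 1.79% with scrambled siRNA. With edgeR's quasi-likelihood test, with total miRNA reads as the scale and the clone as a block, 10 of 136 members tested rose and none fell (Benjamini-Hochberg adjusted p under 0.05). The only member filtered out was miR-4433-3p. Over all 2374 miRNAs tested, 4.97% were called higher and 0.505% lower, so that the share of members called higher (7.35%) was near that background. At an unadjusted p under 0.05, 46 members were higher and none lower, against 568 higher and 53 lower of all 2374 miRNAs. The median member changed by 0.37 on the log2 scale and the median miRNA by 0.29, so most of the shift was common to all miRNAs on this scale. TMM factors set that common shift to 0.00. The median member was then at 0.08, 83 of 134 members were above 0 instead of 126 of 136, and only miR-4492 was still called. Of all miRNAs, 0.929% were called higher and 1.48% lower with TMM factors. DESeq2 called 4 of 137 members higher and none lower (2.92%), against 1.36% of all miRNAs higher and 2.4% lower.

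miR-4492 had 60.5, 42.6 and 54.7 RPM with scrambled siRNA in FTO1C1, FTO2D4 and FTO3C3, and 188, 104 and 127 RPM with FTO siRNA in the same order. The groups did not overlap, and the ratio within clones was 2.62 ± 0.43 (SD, n = 3). The log2 fold change was 1.38 ± 0.19 (SE), with an edgeR adjusted p of 0.0051.

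miR-4502 had 3057, 2468 and 2410.5 RPM with scrambled siRNA and 4879, 5796 and 4898 RPM with FTO siRNA. Every FTO siRNA library was above every scrambled siRNA library, with ratios of 1.60, 2.35 and 2.03. The log2 fold change was 0.98 ± 0.15 (edgeR adjusted p = 0.0082, and 0.057 with TMM factors).

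miR-4483 had 673, 1095 and 1197 RPM with scrambled siRNA and 1597, 2272 and 1579 RPM with FTO siRNA. The rise was smallest in FTO3C3, at a ratio of 1.32, and the log2 fold change was 0.90 ± 0.18 (edgeR adjusted p = 0.024). miR-4517 had 548, 716 and 570.0 RPM with scrambled siRNA and 990.2, 1317 and 920.1 RPM with FTO siRNA. Its ratios were alike in the 3 clones, 1.75 ± 0.12, with a log2 fold change of 0.81 ± 0.14 (edgeR adjusted p = 0.016).

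The other calls were smaller or rarer members. miR-4475 had 31.6 ± 4.49 RPM with scrambled siRNA and 58.9 ± 17.9 RPM with FTO siRNA (log2 fold change 0.86 ± 0.20, edgeR adjusted p = 0.037). miR-4485 had 29.2 ± 2.91 and 51.4 ± 7.0 RPM (0.80 ± 0.20, edgeR adjusted p = 0.045), and miR-4535 had 703 ± 126 and 1128 ± 35.1 RPM (0.70 ± 0.16, edgeR adjusted p = 0.036). miR-4444, miR-4515 and miR-4488, which are named after their values were seen, rose by 0.80 ± 0.20, 0.77 ± 0.18 and 0.77 ± 0.19 on the log2 scale (edgeR adjusted p = 0.048, 0.036 and 0.045). The groups overlapped for miR-4444 alone among the 10, which the test had picked from these same libraries. Overlap was not counted over all miRNAs.

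**Figure D1:**
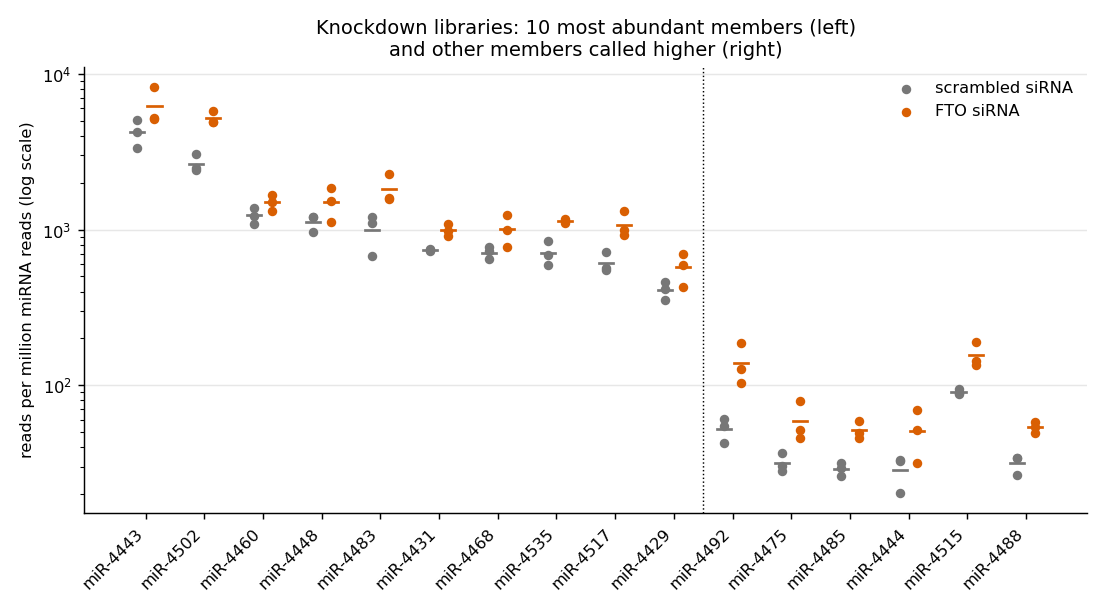
Level of 16 members in the knockdown libraries, in RPM on a log axis. Each point is 1 library (3 clones per group), the bar is the mean, and the dotted line parts the 10 most abundant members from the other 6 called higher. miR-4492 stands at 42.6 to 60.5 RPM in the 3 scrambled siRNA libraries and at 104 to 188 RPM in the 3 FTO siRNA libraries.

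Calls depended on FTO1C1 and on the pairing. Without FTO1C1 there was no call among members or among all miRNAs in either direction with edgeR. There, 20 members had an unadjusted p under 0.05, all higher, against 279 higher and 48 lower of all 2363 miRNAs. Without FTO2D4 there were 7 higher and 1 lower (3.64% and 1.63% of all miRNAs), and without FTO3C3 there were 13 higher (8.08% of all). The lower one was the joined entry miR-4520a-5p/miR-4520b-5p. It had 36.6, 34.1 and 356 RPM with scrambled siRNA in FTO1C1, FTO2D4 and FTO3C3, and 48.3, 73.4 and 75.1 RPM with FTO siRNA, so its fall rests on 1 library. Without the clone as a block, 2 members were called, miR-4492 and miR-4502 (edgeR adjusted p = 0.034 for each), and 1.56% of all miRNAs were called higher.

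miR-4443, the most abundant member, missed the threshold. It had 8239, 5184 and 5112 RPM with FTO siRNA, each above the 3 scrambled siRNA libraries, and a log2 fold change of 0.54 ± 0.14 (edgeR adjusted p = 0.052). miR-4489 likewise had 4.95, 11.4 and 6.53 RPM with scrambled siRNA and 16.4, 15.6 and 15.2 RPM with FTO siRNA (1.10 ± 0.28, edgeR adjusted p = 0.052). Members with the seed of a known family were not called. miR-4458, with the let-7 seed, had 4.83 ± 1.36 and 7.70 ± 1.61 RPM (0.64 ± 0.29, edgeR adjusted p = 0.20). miR-4465, with the miR-26 seed, had 91.0 ± 27.1 and 119 ± 38.4 RPM (0.39 ± 0.18, edgeR adjusted p = 0.20), and miR-4429, with the miR-320 seed, had 410.4 ± 53.1 and 572 ± 133 RPM (0.46 ± 0.17, edgeR adjusted p = 0.13). miR-4530 did not follow the others. It had 37.7, 31.7 and 124 RPM with scrambled siRNA, so that the library of FTO3C3 stood above the others, and 41.4, 45.6 and 51.6 RPM with FTO siRNA. Its log2 fold change was -0.22 ± 0.31 with all clones and 0.32 without FTO3C3, and it was not called in either case (edgeR adjusted p = 0.67 and 0.30). miR-4459 (39.9, 39.0 and 107 RPM) and miR-4469 (20.1, 19.1 and 48.7 RPM) were also highest in that scrambled siRNA library, as was the joined entry miR-4520a-5p/miR-4520b-5p.

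By the rule of the methods, a miRNA was increased at 15 RPM or more in all FTO siRNA libraries and a mean ratio above 2. This held for miR-4489 and miR-4492, 2 of 137 members, and for 1.45% of all miRNAs. A decrease, with 15 RPM in all scrambled siRNA libraries and a mean ratio under 0.5, held for no member and for 0.165% of all. miR-4502 lay just under the limit at a mean ratio of 1.99 ± 0.38, and miR-4489 just over it at 2.34 ± 0.97.

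**Figure D2:**
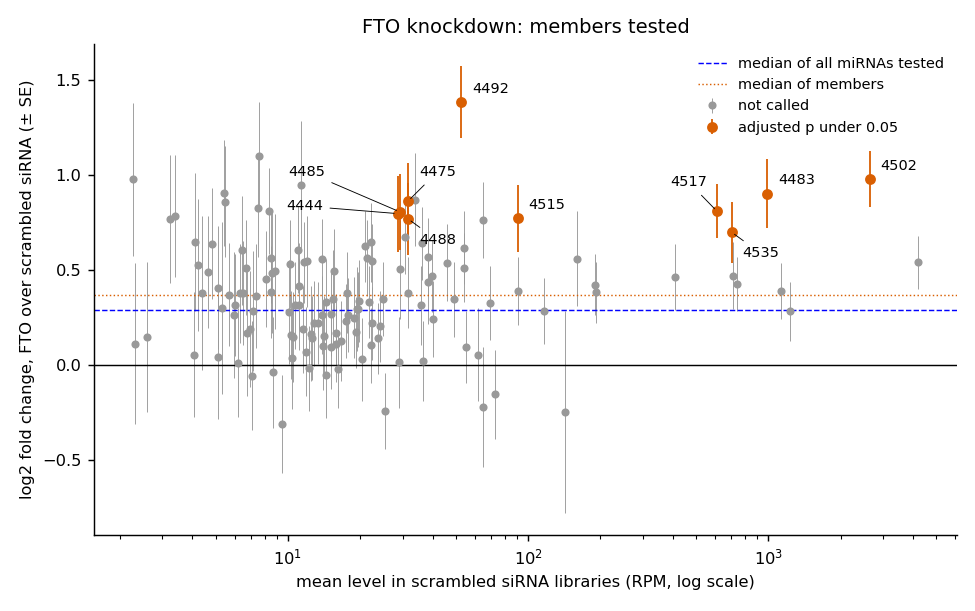
log2 fold change of FTO siRNA over scrambled siRNA (± SE) of the 136 members tested against their mean level in the scrambled siRNA libraries (RPM, log axis). The 10 members with an edgeR adjusted p under 0.05 are numbered, and the lines mark the median of members (0.37) and of all miRNAs tested (0.29).

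The second set of comparisons asks which members come down with the m6A antibody. The 3 contrasts between m6A, IgG and input share libraries, so they are not independent and are given side by side. Members took 2.18% ± 0.37 of the reads with the m6A antibody, 0.956% ± 0.21 with IgG and 1.28% ± 0.25 in the inputs. In RPM, 113 of 128 members had at least 15 RPM in all 3 m6A libraries (88.3%, against 83.9% of all miRNAs), 74 in all IgG libraries (57.8% and 53.1%) and 50 in all inputs (39.1% and 42.8%). When miR-6080 was left out of the totals, members took 3.77%, 3.35% and 4.68% in the m6A libraries, 2.32%, 3.02% and 2.85% in the IgG libraries, and 1.62%, 2.14% and 1.33% in the inputs. Among the members whose fold changes are given, leaving it out moved the log2 value by -0.77 to -0.67 for m6A over IgG, by 0.45 to 0.48 for m6A over input and by 1.11 to 1.19 for IgG over input. For IgG over input, this took miR-4492 from 6.20 to 7.34, miR-4469 from 5.61 to 6.75, miR-4443 from -6.92 to -5.77 and miR-4460 from -3.27 to -2.12. No direction changed, and the only call that changed was that of miR-4502 for m6A over input. With either total, every m6A library held a larger share of members than every IgG library and every input. This order was not particular to members. With all reads in the totals, the miR-4632 to miR-4804 series took 2.93 to 3.84% with m6A, 1.39 to 1.85% with IgG and 0.78 to 1.08% in the inputs. The top 3 members of each m6A library held 30.7 to 35.6% of its member reads.

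Against IgG, 50 of 125 members tested were higher and 1 was lower in the m6A libraries (edgeR), with 38.6% and 1.27% of all miRNAs called in these directions. The median member was at 0.74 and the median miRNA at 0.83 on the log2 scale. The split leaned on the total. With miR-6080 left out of it, 28 of 115 members were higher and 18 lower (23.4% and 13.5% of all miRNAs). With TMM factors, 27 of 112 were higher and 20 lower (23.5% and 17% of all). The medians of members then fell to 0.03 and -0.04. Without FTO2D4, the clone of the repeated count, 26 members were higher and none lower with edgeR (44 and 2 at an unadjusted p under 0.05). Without FTO1C1 there were 45 higher and 1 lower, and without FTO3C3 there were 40 higher and none lower (53 and 2 at an unadjusted p under 0.05). Of all miRNAs, 22.8%, 33% and 28.8% were called higher without FTO2D4, FTO1C1 and FTO3C3, and 0.7%, 0.929% and 0.147% lower. At an unadjusted p under 0.05, 719 of all 1999 were higher and 54 lower without FTO2D4, and 863 and 30 of 2039 without FTO3C3. For miR-4502, miR-4535, miR-4527, miR-4524a-3p, miR-4517, miR-4468, miR-4429, miR-4434, miR-4530 and miR-4484, the rise over IgG was called with each of these totals and without each clone in turn.

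miR-4502 had 17.5, 17.8 and 59.0 RPM with IgG, from 13, 14 and 11 reads, and 1752, 2190 and 4240 RPM with the m6A antibody. The groups were far apart, and the mean ratio within clones was 98.3 ± 25.6. The log2 fold change was 6.59 ± 0.34, the largest among members (edgeR adjusted p = 3.7e-06). Against input it was 0.62 ± 0.43 (edgeR adjusted p = 0.19), since the inputs had 1477, 2242 and 1339 RPM. That last value turned to -0.91 with TMM factors. It was 1.07 with miR-6080 left out of the totals (edgeR adjusted p = 0.039), so its direction against input was set by the scale. The loss with IgG was not, at -6.02 ± 0.52 for IgG over input (3.3e-29).

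miR-4535 had 32.4, 21.6 and 42.9 RPM with IgG and 1833, 2127 and 2300.1 RPM with the m6A antibody. Its inputs had 118, 139 and 169 RPM, so the m6A libraries were above both. The log2 fold change was 6.08 ± 0.35 over IgG (edgeR adjusted p = 4.0e-06) and 3.89 ± 0.44 over input (1.5e-08). miR-4517 had 68.8, 85.2 and 107 RPM with IgG and 1463, 1647 and 2444 RPM with the m6A antibody, with 503 ± 137 RPM in the inputs. It was 4.39 ± 0.29 above IgG (edgeR adjusted p = 8.2e-06) and 1.87 ± 0.42 above input (2.3e-04, and 0.36 with TMM factors).

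miR-4527 had 13.5, 7.63 and 26.8 RPM with IgG, 17.8, 21.9 and 16 RPM in the inputs, and 397, 502 and 714 RPM with the m6A antibody. It was low in both controls and its log2 fold change was 5.22 ± 0.40 over IgG (edgeR adjusted p = 1.6e-05) and 4.82 ± 0.47 over input (1.7e-09). miR-4434, an A-rich and C-free member, had 2 reads in 1 IgG library and 0 in the others. Its m6A libraries had 28.1, 29.4 and 54.1 RPM, 4.71 ± 0.78 above IgG (edgeR adjusted p = 0.0015), a fitted value that leans on these few IgG reads.

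miR-4530 was the second most abundant member with the m6A antibody, at 2852, 1714 and 2577 RPM. It had 133, 117 and 306 RPM with IgG and 21.3, 20.5 and 21.99 RPM in the inputs, so it was raised with both antibodies and most with m6A. Its log2 fold change was 6.77 ± 0.51 over input, the largest rise among members (edgeR adjusted p = 5.3e-11), 3.80 ± 0.34 over IgG (4.4e-05), and 2.97 ± 0.49 for IgG over input (7.4e-09). miR-4484 had 845, 922 and 1052 RPM with the m6A antibody, against 94.4, 89.0 and 150.2 RPM with IgG and 91.3 ± 12.5 RPM in the inputs. It was 3.12 ± 0.29 above IgG (edgeR adjusted p = 4.9e-05).

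miR-4468 and miR-4429 resembled miR-4502. miR-4468 had 9.44, 15.3 and 0 RPM with IgG, 150, 243 and 211 RPM in the inputs, and 211, 244 and 290.2 RPM with the m6A antibody. It was 4.59 ± 0.53 above IgG (edgeR adjusted p = 2.0e-04) and 0.32 ± 0.38 above input (0.46, and -1.22 in log2 fold change with TMM factors). miR-4429 had 16.7 ± 9.01 RPM with IgG, 179.9 ± 48.1 RPM in the inputs and 359 ± 40.9 RPM with the m6A antibody. Its change was 4.60 ± 0.41 over IgG (edgeR adjusted p = 4.4e-05) and 1.02 ± 0.40 over input (0.021). The latter was -0.52 with TMM factors, and its adjusted p was 0.19 without FTO1C1 and 0.065 without FTO3C3.

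**Figure D3:**
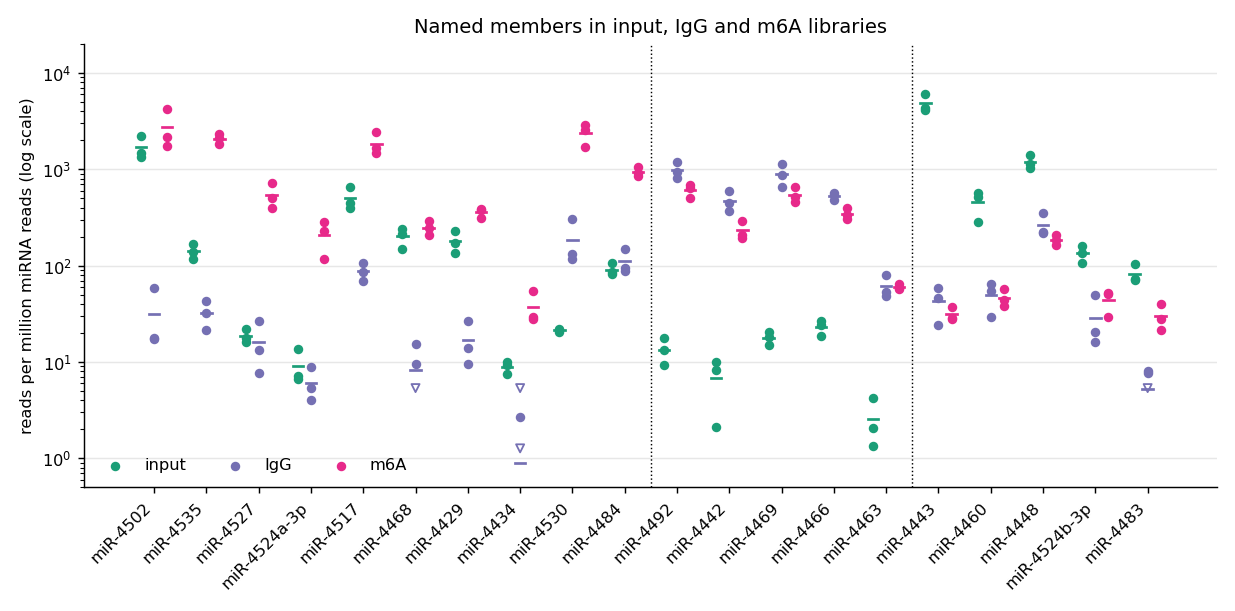
Level of 20 members in the 3 input, 3 IgG and 3 m6A libraries (RPM, log axis); points are libraries, bars are means, and an open triangle marks a library with 0 reads, drawn at the value of 1 read. On the left are members higher with the m6A antibody than with IgG, of which miR-4530 was above the input with both. In the middle are members above the input with both antibodies (miR-4492 at 809 to 1196 RPM with IgG and 507 to 696 RPM with m6A). On the right are members below the input with both.

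A second pattern was a higher level with both antibodies than in the input. miR-4492 had 9.23, 17.8 and 13.3 RPM in the inputs, 809, 948 and 1196 RPM with IgG and 636, 507 and 696 RPM with the m6A antibody. IgG was above m6A in every clone. The log2 fold change over input was 6.20 ± 0.51 for IgG (edgeR adjusted p = 9.0e-32) and 5.52 ± 0.49 for m6A (6.2e-10). miR-4442 had 2.13, 8.22 and 10.0 RPM in the inputs, 367, 446 and 601 RPM with IgG and 209, 193 and 294 RPM with the m6A antibody. It was the only member called lower with m6A than with IgG (-1.02 ± 0.27, edgeR adjusted p = 0.015), although it was 5.16 ± 0.51 above input. Without FTO2D4 or without FTO3C3 it was no longer called (edgeR adjusted p = 0.12 and 0.067).

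miR-4469 (17.8 ± 2.83 RPM in the inputs, 894 ± 248 RPM with IgG and 543 ± 101 RPM with m6A) and miR-4466 (23.0 ± 4.18, 527 ± 42.3 and 342 ± 46.7 RPM) had the same order of groups. miR-4469 was 5.61 ± 0.49 above input with IgG (edgeR adjusted p = 6.6e-28) and 4.92 ± 0.46 with m6A (1.4e-09), and miR-4466 was 4.52 ± 0.48 above input with IgG (7.0e-20). miR-4463 had 2.55 ± 1.52 RPM in the inputs, 60.9 ± 17.2 RPM with IgG and 60.4 ± 4.20 RPM with m6A, with a change of 4.49 ± 0.60 for IgG over input (edgeR adjusted p = 1.1e-12). miR-4492 and miR-4466 hold no A at all, which is the base that m6A marks, and hold 58.8% and 72.2% of G. In the same set, miR-4442 holds 5 A and miR-4463 holds 2, each with an RRACH match. miR-4483 also holds no A, but was lower with IgG (5.24 RPM) than with m6A (29.9 RPM). A link between the count of A and the pattern was not tested.

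A further pattern was a lower level with both antibodies than in the input. miR-4443 had 4122, 6084 and 4341 RPM in the inputs, 24.3, 45.8 and 59.0 RPM with IgG and 28.1, 28.6 and 37.4 RPM with the m6A antibody. It was the first member by level before precipitation, but the 50th with IgG and the 99th with m6A. Its log2 fold change was -7.25 ± 0.53 for m6A over input (edgeR adjusted p = 5.3e-11) and -6.92 ± 0.50 for IgG over input (5.2e-40). Between m6A and IgG it was -0.40 ± 0.38 and not called (edgeR adjusted p = 0.43, and 0.032 at -1.16 with TMM factors).

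miR-4460 (456 ± 152 RPM in the inputs, 49.6 ± 17.9 with IgG and 46.5 ± 9.94 with m6A) fell by 3.23 ± 0.45 for m6A over input (edgeR adjusted p = 4.3e-07) and by 3.27 ± 0.47 for IgG over input (5.2e-11). miR-4448 (1187 ± 189.8, 264 ± 72.6 and 186 ± 24.0 RPM) fell by 2.67 ± 0.41 for m6A over input (edgeR adjusted p = 2.2e-06). By level it was still the 8th member with IgG and the 22nd with m6A. miR-4483 (82.4 ± 19.5, 5.24 ± 4.54 and 29.9 ± 9.59 RPM) fell by 1.47 ± 0.43 for m6A over input (edgeR adjusted p = 0.0031, and 0.074 without FTO2D4) and by 3.69 ± 0.62 for IgG over input (1.5e-08).

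The strands of the miR-4524 locus differed. miR-4524a-3p had 7.10, 13.7 and 6.67 RPM in the inputs, 4.05, 8.90 and 5.36 RPM with IgG and 118, 284 and 226 RPM with the m6A antibody. It was 5.00 ± 0.42 above IgG (edgeR adjusted p = 2.8e-05) and 4.50 ± 0.47 above input (6.3e-09). miR-4524b-3p had 106, 160 and 136 RPM in the inputs, 49.9, 20.3 and 16.1 RPM with IgG and 52.7, 29.4 and 51.1 RPM with the m6A antibody, so that it fell by 1.62 ± 0.42 for m6A over input (edgeR adjusted p = 0.0011). Both hold GAC or AAC and meet the counting criterion against each other, and the difference between them was not tested.

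Against input, 96 of 128 members were higher and 7 lower with the m6A antibody (edgeR), with 66.8% and 10.5% of all miRNAs. The medians were 1.91 for members and 1.65 for all. The split changed to 38 higher and 24 lower of 124 with TMM factors (28.3% and 29.7% of all). It was 106 higher and 5 lower with miR-6080 left out of the totals (73.3% and 6.73% of all). With IgG, 49 of 108 members tested were higher and 19 lower than in the inputs, with 36.8% and 21.8% of all miRNAs. With TMM factors they were 39 and 29 (27.6% and 34.1% of all), and with miR-6080 left out 74 and 12 (62.3% and 13.8% of all). The 20 members that did not pass the filter here, such as miR-4434 and miR-4524a-3p, were low in both groups. The median over members was 0.86 and over all miRNAs 0.49, and 0.25 and -0.18 with TMM factors.

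**Figure D4:**
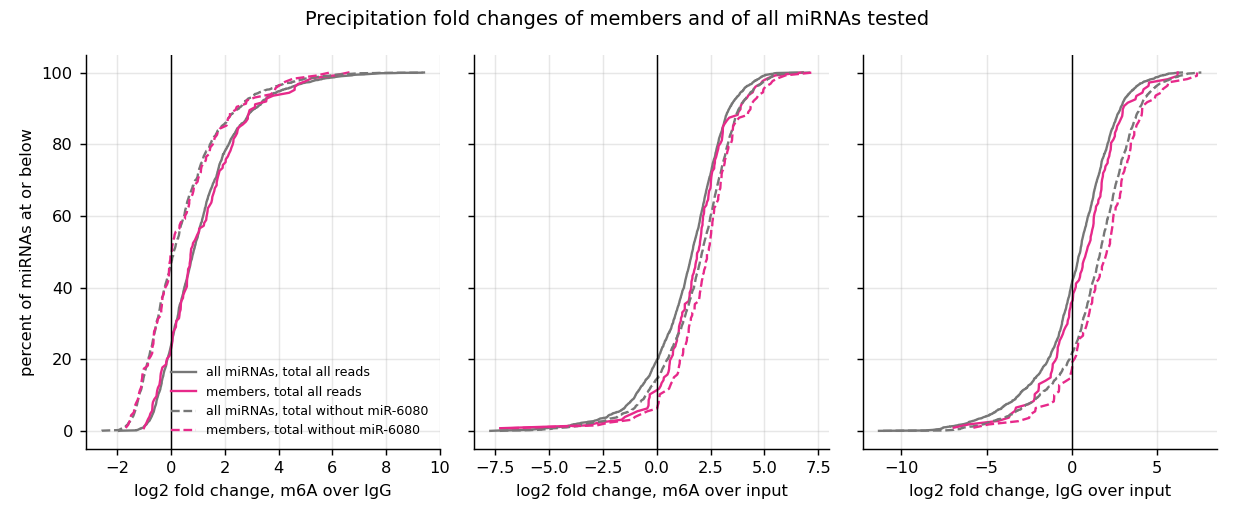
Cumulative share of miRNAs (percent) by log2 fold change in the 3 precipitation contrasts, for members and for all miRNAs tested, with the total of all miRNA reads (solid) or without miR-6080 (dashed). In m6A over IgG the curves of members and of all run close together with medians of 0.74 and 0.83, and leaving miR-6080 out moves both to the left, to 0.03 and 0.10.

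By the rule of the methods, a miRNA was enriched at 100 RPM or more in all m6A libraries and a mean m6A to IgG ratio of at least 2. This held for 13 of 128 members, near the background of 11.8% of all miRNAs. They were miR-4429, miR-4459, miR-4461, miR-4468, miR-4484, miR-4502, miR-4515, miR-4516, miR-4517, miR-4524a-3p, miR-4527, miR-4530 and miR-4535. With TMM-scaled values, for which the share of all miRNAs was not counted, 10 of them were left, without miR-4461, miR-4515 and miR-4524a-3p. Of those, miR-4461 had 107, 103 and 133 RPM with the m6A antibody, and miR-4524a-3p had 118 RPM in FTO1C1, so both lay just inside the limit of 100 RPM. miR-4516 had 54.3 ± 14.6 RPM with IgG and 247 ± 11.7 RPM with m6A, and miR-4459 had 74.0 ± 43.4 and 398 ± 60.1 RPM. miR-4465 had 189 ± 45.8 RPM with IgG and 184 ± 35.6 RPM with m6A.

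Letters of the sequence were set beside the precipitation values. The share of A in the sequence correlated with the log2 fold change of m6A over IgG with r = 0.35 over 109 members and 0.32 over 1803 miRNAs. These are descriptions across miRNAs of the same 6 libraries, which share depth and scale. The 44 members called higher with a sequence had a median of 29.0% A, and the 64 not called had 21.98%. For m6A over input, r over 112 members was -0.48 for U, 0.32 for G and 0.31 for G plus C (-0.36, 0.32 and 0.27 over 1910 miRNAs). For IgG over input, r over 94 members was 0.39 for G plus C, 0.29 for G and -0.29 for U (0.37, 0.23 and -0.27 over 1710 miRNAs). A run of GGGG was found in 10 of 39 members called higher with IgG than in the inputs (25.6%) in 3 of 38 not called (7.89%) and in 3 of 17 called lower (17.6%). Over all miRNAs these shares were 20.1%, 8.95% and 5.22%. For m6A over input, 70.6% of the 17 members with GGGG and 73.7% of the 95 without it were called higher, against 86.5% and 64.4% over all miRNAs, so that members and all miRNAs differed in this respect, which was not tested. GAC or AAC was present in 21 of 44 members called higher with m6A than with IgG (47.7%) and in 30 of 64 not called (46.9%). Over all miRNAs these shares were 44.8% and 37.4%.

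Depth set a limit for the rarer members. IgG of FTO3C3 had 13 of 128 members and 142 of all 2189 miRNAs at 0 reads. A count of 0 there allows up to 16.1 RPM (3 reads), for counting error only. The median member had 8 reads in that library, 18 and 17 in the other IgG libraries and 295.5 in m6A of FTO3C3. Ratios to IgG of members below that level therefore rest on few reads.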

How the data were processed

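Small RNA libraries of 3 Flp-In 293 T-Rex clones were analysed, 3 per group in 5 groups. Adapters had been removed by the authors (cutadapt, 20% error, overlap of 4 bp), and inserts between 16 and 28 bp had been matched to mature miRNAs of miRBase release 20, with identical entries collapsed and no genome alignment. The deposited values are raw counts for each mature miRNA. RPM, ratios and the rules for increased, decreased and enriched miRNAs follow the methods, with an IgG count of 0 set to 3 reads.

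The counts of all miRNAs went into edgeR's quasi-likelihood test (filterByExpr with a minimum count of 10, total miRNA reads as library size, clone as a block), with Benjamini-Hochberg adjustment over all miRNAs tested and a threshold of 0.05. The SE is the absolute log2 fold change divided by the square root of F. Clones pair the libraries by their labels. The deviations of paired libraries from their group means correlated at 0.116 to 0.181 in the knockdown, 0.014 to 0.040 for m6A and IgG, -0.072 to -0.028 for m6A and input and -0.027 to 0.072 for IgG and input. Software was Python 3.11.15 (pandas 2.3.3, numpy 2.4.6, matplotlib 3.10.9) and R 4.3.3 (DESeq2 1.42.0, edgeR 4.0.16, limma 3.58.1). Alternatives were TMM factors, DESeq2, other filters, totals without the largest miRNA, no block, a joint fit and each clone left out.

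Members, lists and markers were chosen with earlier results of these data known. Members named are, per comparison, the 5 with the largest rise and the 5 with the largest fall among calls of the same direction in all 3 clones, the 10 highest in scrambled siRNA and in input libraries, those named in the paper, and those with a let-7, miR-26 or miR-320 seed. Clones and not independent cultures of 1 clone are the replicates. With the clone as a block, p-values rest on how the differences between conditions vary over 3 clones, which were each sampled once.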

Additional observations from a re-analysis of the deposited data

How the results depend on the processing

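Scaling and single clones moved the counts most. In the knockdown, members called higher went from 10 to 1 with TMM factors, 4 with DESeq2, 16 with a filter of 15 RPM and 2 without the cell line block, and to between 0 and 13 when 1 clone was left out (lower, 0 to 1). Of all miRNAs, 0.929%, 1.36%, 14.6% and 1.56% were called higher in these settings, and 0 to 8.08% when 1 clone was left out. The median of members was 0.084 with TMM factors and 0.084 with DESeq2. For m6A against IgG, members higher and lower were 27 and 20 with TMM factors, 22 and 19 with DESeq2 (16.6% and 11.5% of all miRNAs), and 28 and 18 without miR-6080 in the totals. Leaving out 1 clone gave 26 to 45 higher and 0 to 1 lower (22.8 to 33% and 0.147 to 0.929% of all). The median turned to -0.036 with TMM factors and -0.019 with DESeq2, and was 0.025 without miR-6080. For m6A against input, members higher and lower were 38 and 24 with TMM factors and 30 and 25 with DESeq2 (22.2% and 26.9% of all miRNAs). The median of members was 0.42, 0.34 and, without miR-6080, 2.37 (the last with 106 higher). For IgG against input, DESeq2 called 31 higher (20.2% of all miRNAs), TMM factors 29 lower, and totals without miR-6080 gave 74 and 12. The medians were 0.25, 0.084 and 2.04 with TMM factors, DESeq2 and without miR-6080. Against input, the m6A value of miR-4502 turned to -0.91 and -0.95 with TMM factors and DESeq2, that of miR-4468 to -1.22 and -1.26, and that of miR-4429 to -0.52 and -0.55. Members increased by the rule were 1 with TMM factors and 4 with the median ratio, and 3 to 5 when 1 clone was left out. The share of all miRNAs was 1.45% with the rule as given and was not counted in these other settings, so members cannot be set against it there.

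Without the cell line block, 52 members were higher for m6A against IgG, 97 for m6A against input and 50 for IgG against input (41.3%, 68% and 38.4% of all miRNAs). In the knockdown, miR-4530 ran from -0.59 to 0.32 when 1 clone was left out. No other named member with a printed fold change changed direction. The cause of these changes was not tested. Few IgG reads limit the ratios of rare members.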
